A study of Homo sapiens and Mus musculus with 20 samples.

Results

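The MYC locus lies in a gene-poor stretch of the long arm of human chromosome 8, and the region examined spanned 2.3 Mb around it (GRCh38), from 1035 kb before the MYC start to 1265 kb past it. All ATAC-seq peaks of SW480 cells in this window were taken, without regard to their height or to any change, after the peaks of 12 libraries had been merged where they overlapped. This gave 549 of the 252173 merged regions of the genome, and 537 of them lay more than 5 kb from MYC (127735434-127742951, plus strand). Of the 549, 91 had a peak in all 12 libraries, 381 in 2 or more and 168 in 1 library, and only regions seen in 2 or more of the 6 libraries of an experiment were tested. SW480 is an established human colorectal adenocarcinoma line. Cells had been exposed for 12 to 16 h to 10 mM sodium propionate (NaPr) or to sodium butyrate (NaBu) at 1 mM, untreated cells being kept beside them, and 50000 cells entered each Omni-ATAC reaction, in which the transposase Tn5 cuts open chromatin. Each compound had its own experiment, with 3 treated libraries and 3 separate untreated libraries. The study asked how these bacterial fermentation products alter chromatin accessibility in colorectal cancer cells.

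MYC encodes a transcription factor that drives growth and proliferation, and in colorectal tumours its expression is kept high by Wnt signalling. Few protein-coding genes surround it. The neighbouring DNA holds tissue-specific enhancers that contact the MYC promoter over long distances, many of them inside genes for long noncoding RNAs (lncRNAs), with PCAT1, PRNCR1, CASC19, CCAT1, CASC21, CASC8 and CCAT2 upstream and PVT1 downstream. Butyrate, and more weakly propionate, inhibits histone deacetylases, which remove acetyl groups from histones.

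Each deposited list ended at peak number 300000 in order of p, with 112145 to 144398 peak intervals per library in the NaPr experiment and 108442 to 128955 in the NaBu experiment. Between 222 and 295 of these, or 0.191% to 0.224%, fell in the MYC domain. Read totals were not analysed here. The genome-wide background recovered from the lists, a relative measure of depth, ranged from 0.936 to 3.03 overlapping tags. Promoters of all 8 epithelial markers, EPCAM, CDH1, KRT8, KRT18, KRT19, CDX2, VIL1 and HNF4A, carried a peak in every one of the 12 libraries. No region was found at the starts of PTPRC, CD3E, CDH5, DCN or MYOD1, which mark blood, endothelial, fibroblast and muscle cells, whereas PECAM1 and PDGFRA had a peak in all 12. When tested as the domain was, PDGFRA was called higher after both compounds and PECAM1 lower after NaBu.

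By the significance of peaks, called rises outnumbered called falls across the MYC domain with either compound. For NaPr this depended on the measure, as given below. Every region received a rank in each library from the significance (−log10 p) of its highest peak, as the share of tested regions lying below, in percent, with regions lacking a peak at 0, and the ranks were tested with limma over all regions of the genome. After NaPr, 32 of 281 tested domain regions (11.4%) were higher and 11 (3.91%) were lower at an adjusted p below 0.05, beside 4.57% higher and 3.99% lower among all 124067 regions tested. After NaBu, 89 of 270 (33.0%) were higher and 37 (13.7%) were lower, beside 19.8% and 17.2% of all 123730. The median change over the domain was 0.68 percentile points after NaPr and 4.88 after NaBu, against 0.02 and 0.71 over all regions. The 2 experiments differed in dose and had separate untreated cells, so their values stand side by side and were not compared. Nothing in the labels says whether the libraries of a group came from separate cultures, so p-values measure the spread between libraries, which may be technical. Because each library pooled many cells, more cells with an open site and a site more open in each cell cannot be told apart.

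The NaPr calls on ranks needed every treated library. Without any 1 of the 3 treated libraries no domain region was called (unadjusted limma p below 0.05 in 73 to 83 regions), and without untreated library 1, 2 or 3 the counts were 22, 11 and 10. The same held over all regions of the genome, where 10618 were called with every library. There the count was 0 without any 1 treated library, and 3779, 1033 and 662 without untreated library 1, 2 or 3. The NaBu count in the domain stayed between 109 and 122 when any 1 library was left out, and over all regions between 38440 and 44156. With regions ranked by fold enrichment in place of −log10 p, 4 of 281 domain regions were higher and 5 lower after NaPr. Over all 124067 regions 2164 were higher and 1303 lower. After NaBu, 51 of 270 domain regions were higher and 34 lower by this ranking, beside 16494 and 17050 of all 123730.

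A second measure did not depend on the height of other peaks. The number of tags overlapping at each summit (the pileup) was recovered from the fold enrichment and the −log10 p of the peak and divided by the genome-wide background of its library. Among domain regions with a peak in all 6 libraries of an experiment, 42 of 117 had a higher pileup after NaPr and 1 a lower one (limma, adjusted p below 0.05), against 13.5% higher and 1.1% lower among all 65178 such regions. After NaBu, 74 of 142 were higher and 31 lower, against 24% and 28.8% of 72559. The median log2 change of the pileup was 0.51 in the domain and 0.21 over all regions after NaPr, and 0.32 and -0.02 after NaBu. With pileups scaled by their median in each library instead, 47 were higher and 6 lower after NaPr, beside 12.2% and 19.9% of all, and 75 were higher and 31 lower after NaBu, beside 24.4% and 28.6%. Scaled by background, the NaPr count was 21 to 55 with any 1 library left out. It fell below the count with all libraries by more than 1.5-fold without treated library 1 (22) or 3 (21).

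**Figure D1:**
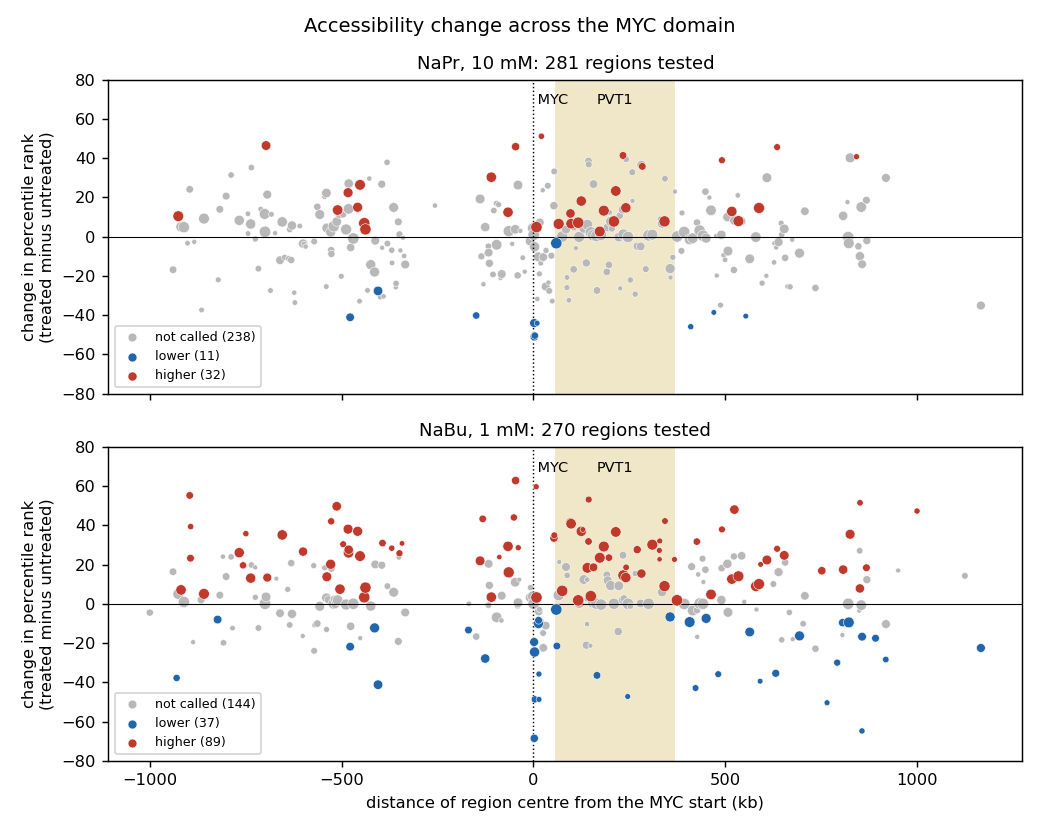
Each point is 1 tested region, placed by the distance of its centre from the MYC start in kb (x axis) and by its change in percentile rank, treated minus untreated (y axis), with larger points for higher mean ranks over the 12 libraries. The 32 red points of the NaPr panel and the 89 of the NaBu panel spread over both sides of MYC. Blue points at the MYC line are regions within the gene or just past it.

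On ranks, the share of higher regions was above the genome-wide one in each of 5 stretches of the domain. Within 5 kb of MYC this rested on 1 or 2 regions, and more were lower. After NaPr, 1 of 9 tested regions was higher there (11.1%) and 4 lower (44.4%, beside 3.99% of all regions). After NaBu, 2 of 9 were higher there (22.2%, beside 19.8% of all) and 4 lower (44.4%, beside 17.2%). Of these 2, 1 had no peak in untreated libraries. Far upstream, more than 100 kb before MYC, 9 of 105 tested regions were higher and 3 lower after NaPr, and 32 of 97 were higher and 7 lower after NaBu. Between 100 and 5 kb before the gene, 2 of 17 were higher after NaPr and 6 of 15 after NaBu, with no region lower in either (3 and 8 regions had an unadjusted limma p below 0.05). From 5 kb past MYC to the end of PVT1, 14 of 96 were higher and 2 lower after NaPr, and 31 of 91 were higher and 12 lower after NaBu. Beyond PVT1 the counts were 6 higher and 2 lower of 54 after NaPr, and 18 higher and 14 lower of 58 after NaBu. The falls after NaBu were most frequent, outside the gene itself, in this last stretch, at 24.1% of regions tested. With regions ranked by fold enrichment, none was called after NaPr in the 100 to 5 kb or the PVT1 stretch.

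**Figure D2:**
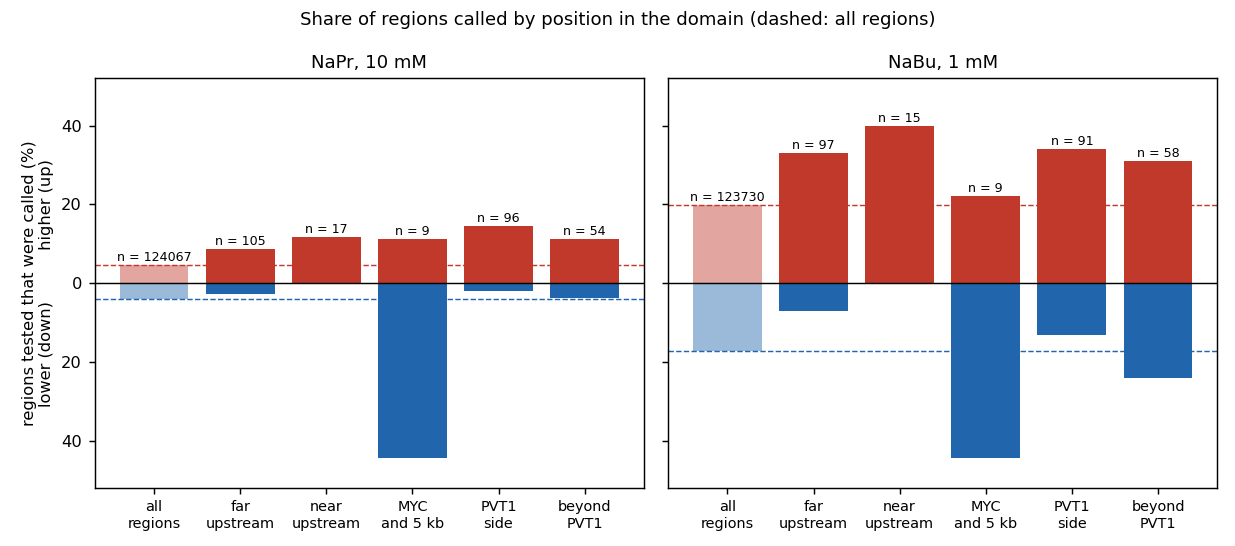
Bars give the share of tested regions called higher (red, upward) or lower (blue, downward) by limma in 5 stretches of the domain, beside all regions of the genome (pale bars and dashed lines), with the number tested above each bar. In all 5 stretches the red bars lie above the dashed line in both panels. Within 5 kb of MYC, where 9 regions were tested, they stand for 1 and 2 regions, and the blue bars are longer.

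Peaks also appeared and disappeared. After NaPr, 9 domain regions had peaks in all 3 treated but none of the untreated libraries (2.95% of all regions tested did) and 14 had the reverse (1.5% did). After NaBu the counts were 24 (6.41% of all) and 8 (3.72% of all). As the lists end at a fixed number of peaks, a missing peak means only that none passed the limit of that list. Among called regions, 5 of the 32 higher after NaPr and 24 of the 89 higher after NaBu had no peak in untreated libraries, and 8 of the 11 and 8 of the 37 lower ones had none in treated libraries. Such a region entered the test only through the group in which it had peaks, so its values are given below without a p. Among regions with a peak in all 6 libraries of an experiment, ranked and tested by themselves, 30 of 117 were higher and 3 lower after NaPr, beside 7.93% and 7.9% of all 65178, and 59 of 142 were higher and 25 lower after NaBu, beside 20.5% and 19.8% of all 72559.

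The largest rank changes came mostly from weak peaks listed in treated or in untreated libraries alone. The 6 largest called rises beyond 5 kb after NaPr ran from 40.8 to 51.2 points, the largest being a peak 20.5 kb past the MYC start (chr8:127755862-127756042) with ranks of 0 in the untreated and 56.2, 57.4 and 40.0 in the treated libraries. Beyond 5 kb, the 6 largest called falls after NaPr ran from -27.6 to -45.9 points, the steepest in a PVT1 intron (chr8:128145011-128145182), where ranks of 43.5, 47.6 and 46.5 gave way to no peak. After NaBu, again beyond 5 kb, the 6 largest called rises ran from 48.0 to 62.8 points and the 6 largest called falls from -41.2 to -64.8. Within MYC, 2 regions fell by more than the steepest of these after NaPr (-51.0 and -50.4 points) and 1 after NaBu (-68.5 points), and they are described with the gene. The largest rise far upstream after NaBu was a peak absent from untreated libraries and ranked at 59.7, 55.1 and 50.9 in treated ones (chr8:126839297-126840439, -896 kb).

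Within the domain, 181 regions were tested in both experiments. Of these, 23 were higher after both compounds, which is 71.9% of the regions higher after NaPr and 25.8% of those higher after NaBu. Over all regions the shares were 55.2% and 12.8%. A further 6 were lower after both, or 54.5% and 16.2% of the lower regions, beside 48.5% and 11.3% over all regions. No domain region was called in opposite directions. Such calls were rare over all regions too. Of 83651 tested in both, 51 were higher after NaPr and lower after NaBu, and 100 the other way. The 23 were spread along the window, with 6 far upstream, 2 near upstream, 1 at the MYC 3′ end, 9 within PVT1 and 5 beyond it. Of the 6 lower regions, 3 lay inside MYC.

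The MYC promoter was 1 of 8 domain regions with a mean rank of at least 99 over the 12 libraries (2.1% of 381 domain regions, against 0.604% of all regions) and was not called in either experiment. At a mean rank of at least 90 the shares were 8.14% and 8.52%. Its region (chr8:127734992-127736590) covers the annotated gene start and reaches into exon 1 of the canonical transcript. In the NaPr experiment its percentile ranks were 99, 98.9 and 98.6 in the untreated libraries and 99.8, 99.8 and 99.7 in the treated ones. The treated values lay above the untreated ones, by 0.99 points (SE 0.47, limma adjusted p = 0.224). Its pileup over background was 339, 229 and 306 untreated and 422, 398 and 405 treated, a log2 change of 0.51 (SE 0.22, limma adjusted p = 0.0945). It was called higher after NaPr under 4 of 25 alternatives, namely pileups scaled by their median (log2 change 0.25, limma adjusted p = 0.00582), 1 fit over all 12 libraries (0.0256), lists held to their top 50000 intervals (0.0376) and pileups without untreated library 2 (0.0133). In the NaBu experiment every library ranked it at 100 after rounding, and the pileup was 788, 840 and 833 untreated against 858, 803 and 812 treated. These groups overlapped, with a log2 change of 0.01 (SE 0.05, limma adjusted p = 0.919). CASC11, an lncRNA gene on the other strand, has 4 regions at its GENCODE starts. The strongest of them by mean rank lies just before the promoter (chr8:127734013-127734401). It was not called either (limma adjusted p = 0.0765 for NaPr and 0.0813 for NaBu). In GENCODE, CASC11 also overlaps regions inside MYC that are described below.

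At the other end of MYC, a region across the end of exon 3, which holds the 3′ untranslated region, and the sequence past it (chr8:127742553-127743850) rose with both compounds. Its ranks went from 94.4, 93.0 and 92.9 to 98.5, 98.3 and 98.3 with NaPr, a change of 4.90 points (SE 0.67, limma adjusted p = 0.00613). With NaBu they went from 95.7, 97.9 and 96.5 to 99.9, 99.9 and 100, a change of 3.23 points (SE 0.58, limma adjusted p = 0.00469). No treated library overlapped an untreated one. The pileup over background rose from 152, 98.5 and 139 to 216, 198 and 225 with NaPr (log2 change 0.74, SE 0.22) and from 231, 258 and 234 to 422, 387 and 418 with NaBu (log2 change 0.76, SE 0.07). The NaPr pileup change had a limma adjusted p of 0.00964, and up to 0.114 with 1 library left out.

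Between these ends, called regions inside MYC were lower, apart from a peak in exon 3 after NaBu. In intron 1, the region chr8:127736999-127737170 ranked at 49.3, 39.2 and 43.4 in untreated NaPr-experiment libraries and had no peak in the treated ones. With NaBu it fell from 82.8, 84.4 and 82.2 to 62.1, 72.6 and 56.2, and its pileup fell by 0.67 on the log2 scale (SE 0.07, limma adjusted p = 1.34e-06). A second intron 1 region (chr8:127737335-127737646) changed by -51.0 points after NaPr (SE 9.63, limma adjusted p = 0.0165, and up to 0.0661 with 1 library left out) and had no peak in NaBu-treated libraries. A region over the end of exon 2 (chr8:127738949-127739072) had a peak in every untreated library and in no treated one of either experiment. The region at the start of exon 2 (chr8:127737737-127738825) was lower after NaBu, by 24.6 points (SE 3.95, limma adjusted p = 0.00303), where its pileup fell by 0.60 on the log2 scale (limma adjusted p = 4.85e-06), and not called after NaPr (change -5.13, limma adjusted p = 0.196). A peak in exon 3 (chr8:127742313-127742453) was absent from the untreated NaBu-experiment libraries and present in all 3 NaBu libraries, at ranks of 65.1, 52.6 and 61.3. A region just past the gene (chr8:127744754-127745122) was present in the 3 untreated NaPr-experiment libraries alone, at ranks of 33.0, 53.0 and 46.3.

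Ranks and pileups inside MYC did not always move together. MACS2 compares each summit with the reads around it, and the local background at the promoter was 51.6, 35.7 and 45.9 times the genome-wide one in untreated and 50.0, 48.4 and 51.4 times in NaPr-treated libraries, whereas it was lower with NaBu (116, 114 and 113 against 92.5, 87.6 and 89.4). In the second intron 1 region, where NaPr-treated libraries 2 and 3 still had a peak, the pileup was 79.4 and 88.9 times background against 117, 82.0 and 104 in untreated libraries, so the pileups overlapped while the ranks (22.2 and 29.0 against 66.9, 70.9 and 66.2) did not. When peaks were merged as fixed windows around their summits, the 4 regions from intron 1 to the end of exon 2 joined the promoter and were no longer called, and the exon 3 peak joined the 3′ end region, which was higher after NaBu (limma adjusted p = 0.00458).

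**Figure D3:**
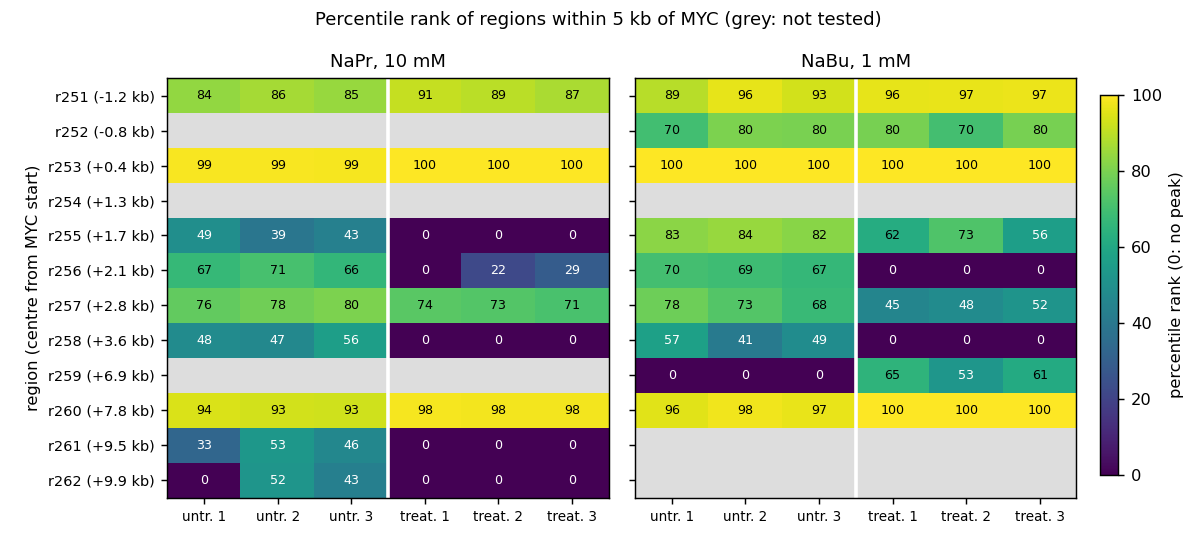
Percentile rank of each region within 5 kb of MYC (rows, in order along the gene, with the distance of the centre from the MYC start) in each library (columns), from 0 where no peak was listed to 100. The promoter row (r253) is at 99 to 100 throughout, the rows r255 to r258 are lower in treated columns, and the 3′ end row (r260) is higher.

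Upstream of the gene, the strongest region within 100 kb (chr8:127670168-127671548, centre at -64.6 kb) rose with NaBu. Its ranks were 79.3, 73.9 and 82.4 untreated and 94.3, 95.7 and 93.7 treated, a change of 16.0 points (SE 1.99, limma adjusted p = 0.00119), and its pileup rose by 1.21 on the log2 scale (SE 0.11). After NaPr it was not called (2.84 points, SE 0.98, limma adjusted p = 0.1). A weaker region in a CASC11 exon (chr8:127688642-127689011, -46.6 kb) rose with both. In each experiment only untreated library 2 had a peak there, at a rank of 31.5 and 29.4. Treated libraries ranked it at 67.0, 53.0 and 49.2 with NaPr and at 77.7, 69.6 and 70.5 with NaBu. The treated libraries alone brought it to the 2 needed for testing, so no p is given. Its NaPr call was lost whichever library was left out.

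The far upstream desert holds lncRNA genes linked to prostate and colorectal cancer. At the start of PRNCR1 (chr8:127080495-127081337, -655 kb) ranks rose from 55.4, 43.5 and 45.8 to 84.2, 86.5 and 79.2 with NaBu. This was a change of 35.1 points (SE 3.97, limma adjusted p = 0.000861), and the pileup over background went from 17.8, 15.1 and 15.7 to 51.9, 58.4 and 43.7 (log2 change 1.66, SE 0.14). With NaPr the treated ranks (82.9, 83.1 and 76.9) lay above the untreated ones (71.4, 74.6 and 74.1) but were not called (limma adjusted p = 0.0769), while the pileup was (log2 change 0.83, SE 0.26, limma adjusted p = 0.0176, and up to 0.151 with 1 library left out). A GENCODE start of CASC19 (chr8:127224598-127225875, -510 kb) was called on ranks after NaPr and not after NaBu. It rose with NaPr, from 66.5, 74.2 and 69.5 to 86.2, 83.6 and 81.2 (13.6 points, SE 2.57, limma adjusted p = 0.0165, and up to 0.0719 with 1 library left out). Its pileup went from 23.5, 24.6 and 26.2 to 60.8, 51.9 and 50.9. With NaBu its ranks of 71.5, 76.6 and 65.0 overlapped the untreated 71.5, 67.1 and 68.9 (limma adjusted p = 0.681). Nearby, in a CASC19 exon (chr8:127222474-127223254), ranks of 29.3, 0 and 35.4 became 74.3, 69.8 and 69.6 with NaBu (limma adjusted p = 0.00477).

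The strongest far upstream site was an intronic region of PCAT1 in GENCODE (chr8:127035451-127036530, -699 kb). With NaBu its rank was already at the ceiling of 100 in untreated libraries, but its pileup over background went from 568, 552 and 661 to 930, 813 and 910, a log2 change of 0.58 (SE 0.07, limma adjusted p = 1.47e-06). With NaPr the pileup went from 144, 76.0 and 119 to 178, 164 and 203 (log2 change 0.73, SE 0.22, limma adjusted p = 0.0119, and up to 0.157 with 1 library left out), and the rank change of 2.5 points was not called (limma adjusted p = 0.0807). The largest NaPr rise beyond 5 kb that was called far upstream was a weak neighbour of this site (chr8:127038683-127038933), from 25.3, 0 and 35.3 to 71.6, 65.8 and 62.6 (limma adjusted p = 0.027). PCAT1 has 11 regions at its GENCODE starts. The strongest of them by mean rank (chr8:126824237-126825331) was not called (limma adjusted p = 0.0764 for NaPr and 0.102 for NaBu).

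Called regions also lay in other lncRNA genes of the desert. CASC21 held the most tested regions of them, 32 in the NaPr and 25 in the NaBu experiment by its RefSeq span, with 5 higher and 2 lower after NaPr and 11 higher and 3 lower after NaBu. The higher ones were 15.6% and 44% of those tested, beside 4.57% and 19.8% of all regions. CASC8, which overlaps it, had 2 higher and 1 lower of 26, and 6 higher and 2 lower of 16. CCAT1, a transcript abundant in colorectal cancer, had 4 and 6 tested regions, none called after NaPr (1 had an unadjusted limma p below 0.05) and 2 higher after NaBu. The only region at CCAT2, which lies over a well-studied colorectal cancer risk enhancer, was not called in either experiment (limma adjusted p = 0.621 and 0.333). Within the overlap of CASC21 and CASC8, a region singled out after its values were seen (chr8:127293898-127295310, mean rank 97.5 over the 12 libraries) was the strongest of those higher after both compounds far upstream. Its pileup rose by 1.23 on the log2 scale with NaPr (limma adjusted p = 3.51e-06) and by 0.65 with NaBu (limma adjusted p = 1.65e-06).

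A smaller number of upstream regions closed. In the same overlap, a region in introns of CASC8 and of a GENCODE transcript of POU5F1B, the retrogene copy of POU5F1 (chr8:127329911-127331105, -405 kb), fell with both. Its ranks went from 72.8, 81.7 and 76.5 to 48.1, 48.9 and 51.2 with NaPr (-27.6 points, SE 4.3, limma adjusted p = 0.00921). With NaBu they went from 69.6, 71.5 and 62.6 to 45.2, 34.9 and 0, where the third treated library had no peak (-41.2 points, SE 10.9, limma adjusted p = 0.0204, and up to 0.0724 with 1 library left out). The NaPr pileup over background went from 26.7, 27.2 and 29.7 to 12.8, 11.8 and 13.6, which fell by 1.13 on the log2 scale (SE 0.28). A GENCODE start of POU5F1B (chr8:127320765-127322317) was lower after NaBu, by -12.3 points (SE 3.73, limma adjusted p = 0.0347, and up to 0.11 with 1 library left out), whereas no region overlapped the shorter RefSeq span of that gene.

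**Figure D4:**
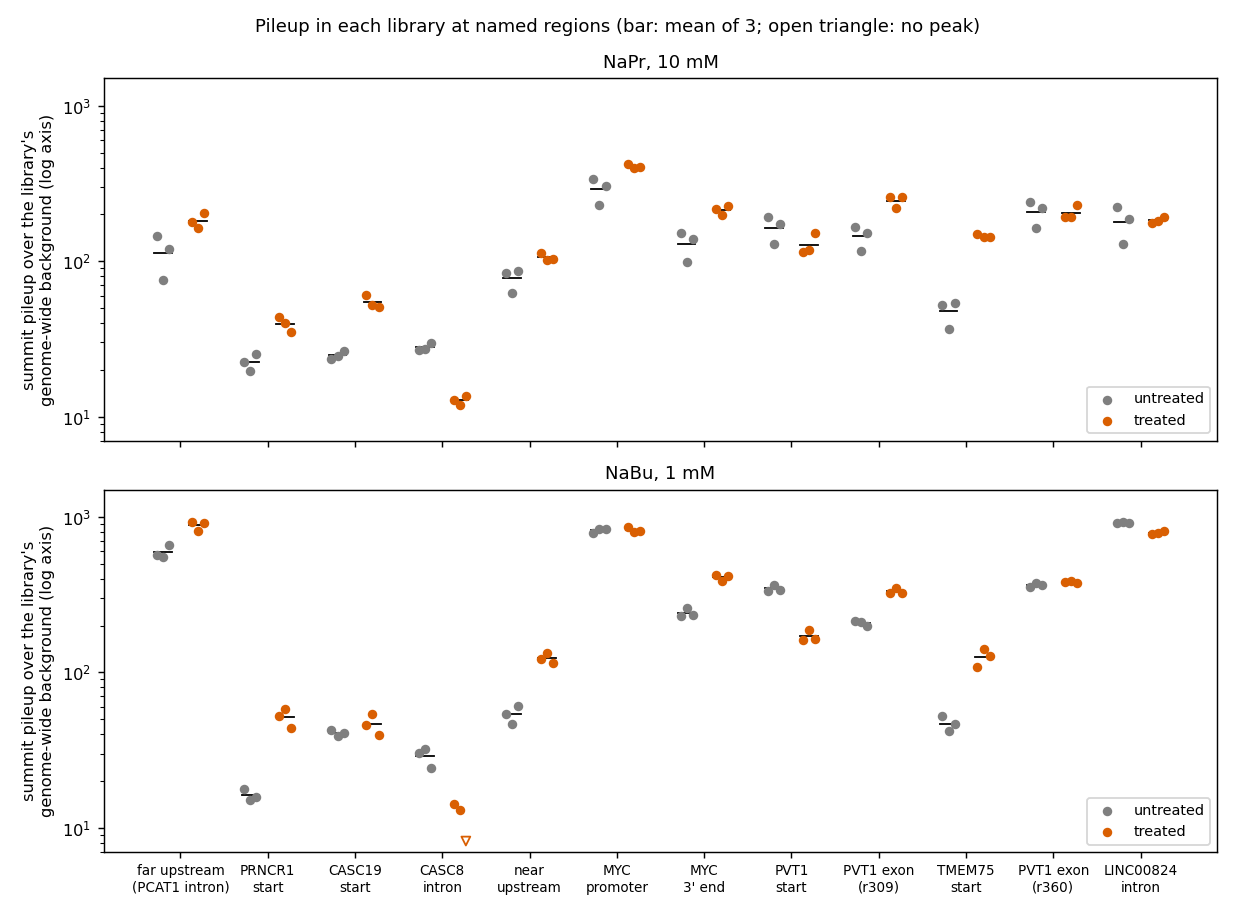
Summit pileup divided by the genome-wide background of the library (log axis) at 12 regions in order along the chromosome, with 3 untreated (grey) and 3 treated (orange) libraries per region, bars for means of 3 and an open triangle where no peak was listed. Treated points lie above the untreated ones at the MYC 3′ end and the TMEM75 start in both panels, and below them at the CASC8 intron.

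The start of PVT1 fell, while regions along its body mostly rose where they were called. PVT1 is an lncRNA gene that is often co-amplified with MYC, and its promoter is known to compete with that of MYC for enhancers inside the PVT1 gene. The promoter region (chr8:127793548-127796178, which also covers MIR1204) fell from ranks of 97.6, 97.1 and 97.0 to 92.2, 94.1 and 95.6 with NaPr (-3.31 points, SE 0.87, limma adjusted p = 0.046). With NaBu it fell from 99.7, 99.9 and 99.8 to 95.7, 98.2 and 96.8 (-2.92 points, SE 0.62, limma adjusted p = 0.0088). The pileup over background went from 335, 366 and 341 to 161, 187 and 165 with NaBu, a log2 change of -1.02 (SE 0.07, limma adjusted p = 7.83e-09). With NaPr the pileups overlapped, at 191, 128 and 174 against 114, 119 and 151 (log2 change -0.35, SE 0.22, limma adjusted p = 0.293), and the call on ranks was lost whichever library was left out (lowest limma adjusted p 0.0572).

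Over the RefSeq span of PVT1 (127794524-128101256), 13 of 65 tested regions were higher and 1 lower after NaPr, and 26 of 62 were higher and 5 lower after NaBu. The higher ones were 20% and 41.9% of those tested, beside 4.57% and 19.8% of all regions, and the lower ones 1.54% and 8.06%, beside 3.99% and 17.2%. A large rise with both compounds lay in a PVT1 intron at the start of TMEM75, named LINC02912 in GENCODE (chr8:127949186-127950510, 214 kb past the MYC start). NaPr-experiment ranks were 72.4, 68.6 and 76.3 untreated and 96.3, 96.3 and 94.7 treated, a change of 23.3 points (SE 1.92, limma adjusted p = 0.00262). NaBu-experiment ranks were 57.6, 43.3 and 51.6 untreated and 82.8, 90.8 and 88.8 treated, a change of 36.6 points (SE 4.10, limma adjusted p = 0.000834). The pileup over background went from 52.3, 36.5 and 54.0 to 150, 142 and 143 with NaPr (log2 change 1.63, SE 0.23) and from 52.1, 41.7 and 46.6 to 108, 140 and 128 with NaBu (log2 change 1.42, SE 0.11). The NaPr pileup call held with each library left out in turn, at a highest limma adjusted p of 2.64e-05.

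Other PVT1 regions varied. The region most like the MYC promoter in its ranks over the 12 libraries lay in a PVT1 intron (chr8:127944095-127945649, Pearson r = 0.98 over 12 libraries of 2 experiments, highest of 370 regions beyond 5 kb). It went from 90.9, 89.8 and 90.5 to 98.0, 98.2 and 98.4 with NaPr (limma adjusted p = 0.00262), and with NaBu it stayed at a rank of 100 after rounding while its pileup rose by 0.30 on the log2 scale (SE 0.06, limma adjusted p = 0.000275). The next most alike (chr8:127851159-127852660, r = 0.97), over a PVT1 exon, rose with both, from 92.2, 92.2 and 90.1 to 98.9, 98.5 and 98.6 with NaPr and from 98.1, 98.5 and 97.7 to 99.8, 99.9 and 99.9 with NaBu (limma adjusted p = 0.00319 and 0.00815). The 12 points of each correlation are the same libraries and fall into the 2 experiments, so these are descriptions. The highest-ranked PVT1 region (chr8:127980980-127982466, 246 kb past the MYC start) was not called on ranks or on pileups scaled by background. Scaled by their median, its pileups were lower after NaPr (log2 change -0.27, limma adjusted p = 0.00732). It had NaBu pileups of 351, 376 and 366 untreated and 379, 387 and 374 treated. Just before it, a weak peak (chr8:127980810-127980882) at ranks of 37.9, 48.9 and 54.9 was missing from all NaBu-treated libraries.

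Beyond PVT1, the strongest region lay in a LINC00824 intron (chr8:128554757-128555854, 820 kb past the MYC start). Its NaBu pileup over background was lower, at 772, 784 and 807 against 917, 922 and 919 (log2 change -0.22, SE 0.04, limma adjusted p = 0.000388), while its rank stayed at 100 after rounding. With NaPr its pileups of 176, 182 and 194 overlapped the untreated 224.3, 129 and 186 (limma adjusted p = 0.884). A GENCODE start of LINC00824 (chr8:128427775-128429138) was lower after NaBu, from 71.1, 67.4 and 71.4 to 50.1, 61.7 and 49.2 (limma adjusted p = 0.0191, and up to 0.0655 with 1 library left out). Over the RefSeq span of the gene 5 of 14 tested regions were lower (35.7%) and 3 higher (21.4%) after NaBu, beside 17.2% and 19.8% of all regions. None of its 9 regions was called after NaPr (1 had an unadjusted limma p below 0.05). A peak absent from all untreated libraries of both experiments (chr8:128369688-128370346, 635 kb past the MYC start) appeared in every treated one, at ranks of 52.1, 48.9 and 36.0 with NaPr and 37.0, 25.7 and 21.4 with NaBu. The steepest NaBu fall of this stretch, a peak at ranks of 64.5, 66.4 and 63.5 (chr8:128591069-128591194), was absent after treatment.

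In the domain, the reads around the summits rose as well. At domain regions with a peak in all 6 libraries, the median local background was 3.91, 4.14 and 3.57 times the genome-wide one in untreated and 4.81, 4.56 and 4.33 times in NaPr-treated libraries. For NaBu it was 4.74, 5.26 and 4.97 times untreated and 6.24, 6.26 and 6.58 times treated. Groups did not overlap in either experiment. Nor did they on chromosome 8 outside the domain, where medians were 1.75 to 1.95 untreated and 2.02 to 2.16 treated for NaPr, and 1.99 to 2.03 against 2.04 to 2.07 for NaBu. Over all regions of the genome the medians were 2.37 to 2.53 untreated and 2.53 to 2.64 treated for NaPr, and 2.36 to 2.38 against 2.41 to 2.43 for NaBu. In the domain the median log2 change per region was 0.17 with NaPr (higher at 79.5% of 117 regions) and 0.25 with NaBu (73.2% of 142). On chromosome 8 outside the domain the median log2 change per region was 1.38e-06 with NaPr and -6.57e-07 with NaBu. The local background was higher there at 57.4% of 2176 regions with NaPr and at 44.6% of 2659 with NaBu. Over all such regions of the genome, the local background was higher at 54.3% with NaPr and at 43.8% with NaBu. Copy number was not analysed here, and its part in the level of the domain was not tested.

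**Figure D5:**
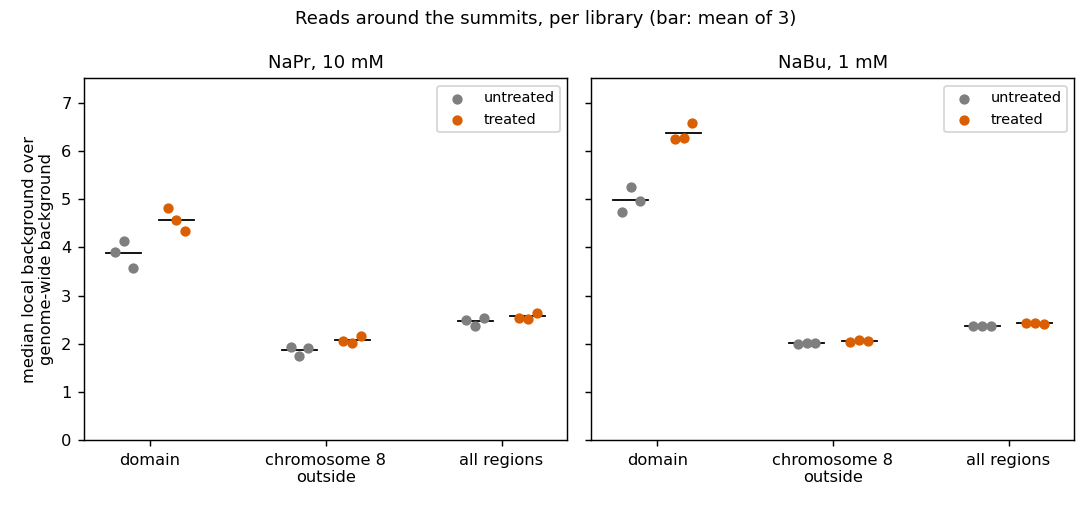
Median local background around summits, divided by the genome-wide background, in each library (points; bars are means of 3) for the domain, the rest of chromosome 8 and all regions with a peak in all 6 libraries of the experiment. Domain values lie between 3.57 and 6.58 and are higher in treated libraries, whereas chromosome 8 outside the domain lies near 2.

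Motif strings were counted on both strands of a 200 bp window centred on the tallest summit of a region. The AP-1 string TGACTCA was present in 10 of 32 regions higher after NaPr (31.2%) and in none of the 11 lower ones, beside 14.7% of 381 domain regions and 15.2% of all 167303 regions seen in 2 or more libraries. Genome-wide it was in 29.1% of regions higher after NaPr and 7.35% of those lower. After NaBu it was in 17 of 89 higher domain regions (19.1%) and 5 of 37 lower ones (13.5%), beside 21.7% and 12% genome-wide. Regions with the string included the MYC 3′ end, the CASC11 exon and the PVT1 exon region next most like the promoter. It was absent from the named regions at starts of PRNCR1, CASC19 and TMEM75, each called higher after 1 compound or both. The weak PVT1 peak missing after NaBu had it. The TCF/LEF string CTTTGAT, bound by the nuclear effectors of Wnt signalling, was in 5.51% of domain regions and 4.61% of all regions, and the E-box CACGTG, to which MYC itself binds, was in 1.57% and 3.98%. CTCF, a factor that anchors chromatin loops, had its consensus in 4 of 381 domain regions (1.05%) and in 3.23% of all regions. Of the 381 domain regions, 3 held 2 or more of the strings, and in 0 of them did matches to different strings share letters (121 of all 167303). A match describes letters in the window and does not show binding.

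Promoters of the MYC network lay on other chromosomes and served as a comparison. All 12 of MAX, MXD1, MXD3, MXD4, MXI1, MNT, MGA, MLX, MLXIP, MLXIPL, MYCN and MYCL had a peak in every library. After NaPr none was called by limma (4 had an unadjusted p below 0.05). After NaBu, 1 was higher and 2 were lower, beside 19.8% and 17.2% of all regions, and 1 to 3 were called with 1 library left out. On pileups scaled by background 8 of the 12 were lower and none higher after NaBu (28.8% and 24% of all regions), and 1 was higher after NaPr (13.5%). Scaled by their median, 1 was higher and 6 lower after NaPr (12.2% and 19.9% of all regions). The 3 promoters called on ranks were MYCN, MNT and MLX, all after NaBu, and their NaBu rank changes follow. MYCN, a MYC paralogue, changed by 2.69 points (SE 0.81, limma adjusted p = 0.033). MNT, a repressor that competes with MYC for MAX, changed by -8.68 points (SE 2.76, limma adjusted p = 0.0409), and MLX, which pairs with MLXIP, by -12.8 points (SE 2.05, limma adjusted p = 0.00298).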

How the data were processed

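The authors trimmed reads (cutadapt 1.9.1), aligned them (Bowtie2 2.3.1) to hg38 and called peaks in each library with MACS2 2.1.0, per the submitters' processing notes. The deposited lists hold for each summit the interval, the fold enrichment over local background as a ratio, and its −log10 p and −log10 q, as the authors' peak caller gave them. The 12 SW480 lists were used, and 8 mouse CT26 lists were not used here. Members and gene lists were chosen with earlier results of these data known.

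Intervals of the 12 lists were merged at 1 bp overlap. For regions found in 2 or more of the 6 libraries of an experiment, percentile ranks were tested with limma 3.58.1 (R 4.3.3, lmFit, eBayes with trend, two-sided), treated against untreated, with Benjamini-Hochberg adjustment over all regions and calls below 0.05. An exact permutation test of 3 against 3 cannot go below 0.1. Whole tags t and background c were solved from fold = (t + 1)/(c + 1) and the Poisson p, for 100% of summits; the lowest c is the genome-wide background. Both steps were tested on simulated data. Genes were placed on GENCODE 44 and RefSeq spans. Sequences of this chromosome are not shown, and 1 marker gene is not reported here. Replicates shared at most 0.796% of identical intervals. Intervals around counts were not computed, as reads were not analysed.

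Named regions were the MYC promoter, every called region within 5 kb, up to 6 of the largest called rises and falls per experiment, the highest-ranked region per stretch, the strongest region at each lncRNA start, and the 5 most like the promoter. Deviations of same-numbered libraries correlated only weakly (r of 0.007 to 0.046). Alternatives were ranking by fold, other merging, filters and scalings, a replicate block, and leaving out each library. Leaving out libraries from the pileup fit was chosen after seeing the data.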

Additional observations from a re-analysis of the deposited data

How the results depend on the processing

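The number of domain regions called after NaPr, 43 on ranks, was 9 when ranked by fold enrichment (4 higher, 5 lower), 19 when a peak in 1 library was enough for testing, and 0 with the replicate number as a block (82 at an unadjusted limma p below 0.05), which also left 0 calls among all regions. The cause was not tested. Leaving out 1 library gave 0 to 22. Other alternatives gave 33 to 55. Among all regions the NaPr count, 10618 on ranks, was 3467 by fold enrichment and 5259 of 202576 when a peak in 1 library was enough. It was 0 to 3779 with 1 library left out. On pileups scaled by background the domain count was 43, and 21 to 55 with 1 library left out (22 without treated library 1, 21 without treated library 3). Among all regions it was 9530, and 3730 to 13457 with 1 library left out. The number of domain regions called after NaBu, 126 on ranks, was 76 when lists were held to their top 50000 intervals, where fewer regions (125) were tested. It was 109 to 122 with 1 library left out, 118 with the replicate block, and 84 to 127 otherwise. Among all regions the NaBu count, 45810 on ranks, was 23678 of 55410 with the top 50000 intervals. It was 38440 to 44156 with 1 library left out and 45033 with the replicate block. Correlations of deviations between same-numbered libraries were 0.007 to 0.046, so the numbers were not taken as pairs, and 4 of 6 treated libraries correlated best with the untreated library of their own number.

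The share of NaPr calls that were higher was 74.4% on ranks, 44.4% by fold, 97.7% on pileups scaled by background and 88.7% scaled by their median. Genome-wide, 5664 regions were higher and 4954 lower on ranks, 8812 and 718 on pileups scaled by background, and 7978 and 12969 scaled by their median. With summit windows, 4 regions inside MYC joined the promoter and took its change (0.99 points for the 3 called after NaPr and 0.00669 for the 4 called after NaBu), and the weak PVT1 peak lower after NaBu joined its neighbour (0.00613). No other called region among those named changed sign under the alternatives run. Weak peaks are limited by the end of the lists.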
